A study of Apis mellifera with 36 samples.

Results

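The rows of the honeybee (Apis mellifera) gene table that lie on the mitochondrial genome were described across sex, time and queen. They were found by position: a gene was a member when the deposited Amel_4.5 annotation placed it on the mitochondrial sequence, and no expression value was used. Of the 13 genes annotated there, 3 were in the table of 12365 genes, namely ND2, COX1 and COX2. The other 10 annotated genes (ATP8, ATP6, COX3, ND3, ND5, ND4, ND4L, ND6, CYTB and ND1) were not analysed here. The samples were 36 single whole embryos, 3 for each combination of sex, time and queen. Female embryos were workers and male embryos were drones, collected at 24, 48 or 72 h after egg laying (AEL) from separate frames of the same 2 mated queens, in colonies kept under standard beekeeping with no other treatment. Females of this species come from fertilized eggs and are diploid, and males come from unfertilized eggs and are haploid. All embryos of a queen were sisters or brothers of that queen's brood, and the labels put queen 1 in the first batch and queen 2 in the second, so queen and batch cannot be told apart.

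As background, animal mitochondria carry a small circular genome, inherited from the mother through the egg, that encodes a few subunits of the respiratory chain and of ATP synthase together with the ribosomal and transfer RNAs needed to translate them. Its genes are transcribed as long precursors in which tRNAs often sit between the protein-coding parts, and processing enzymes cut at the tRNAs to release the messages. ND2 is a subunit of complex I (NADH dehydrogenase), which passes electrons from NADH into the chain. COX1 and COX2 form the catalytic core of complex IV (cytochrome c oxidase), which passes them to oxygen. The other subunits of these complexes are encoded in the nucleus and imported.

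The 3 rows did not measure what their symbols name in a simple way. On the mitochondrial sequence of 16343 bases, ND2 lies at chrMT:502-1503 on the plus strand, COX1 at chrMT:1794-3359 on the plus strand and COX2 at chrMT:3618-4295 on the plus strand. The annotation gives these genes a coding part but no exon of their own, and the only exon listed below each one is a tRNA at its downstream edge. For ND2 this is tRNA-Cys at chrMT:1503-1571 on the minus strand, which shares 1 base with the coding part. For COX1 it is tRNA-Leu at chrMT:3355-3424 on the plus strand, which shares 5 bases, and for COX2 it is tRNA-Asp at chrMT:4294-4362 on the plus strand, which shares 2 bases. The length by which RPKM had been divided was recovered from counts and RPKM, and its median over embryos was 69.0 bases for ND2, 70.0 for COX1 and 69.0 for COX2. These are the lengths of the tRNA exons (69, 70 and 69 bases), while the coding parts measure 1002, 1566 and 678 bases. The 10 mitochondrial genes outside the table were also the only 10 genes of the whole annotation without any exon line. Whether reads were counted over the tRNA exon alone, and whether the strand was used, is not given in the sources used here. With reads kept at 65 bases and no strand setting stated, tRNA, the end of the message and RNA of the opposite strand cannot be told apart in these rows. ND2, COX1 and COX2 below therefore name rows of the table, not amounts of the 3 messages.

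**Figure D1:**
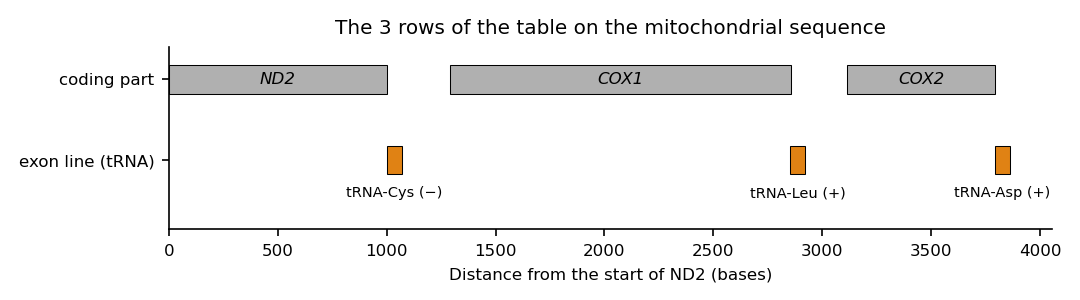
Map of the 3 members, with the distance from the start of ND2 in bases on the horizontal axis. Grey boxes are the coding parts and orange boxes the exon lines, each a tRNA of 69 or 70 bases that begins at the last 1 to 5 bases of the coding part, with its strand in brackets.

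The counts on all genes of the table summed to between 1195774 and 12808580 per embryo. They made up a changing part of the library total behind the deposited RPKM. In females this part was 79.3% ± 1.97 at 24 h, 61.7% ± 2.40 at 48 h and 66.1% ± 3.07 at 72 h (SD, n = 6 each). In males it was 76.7% ± 1.11 at 24 h, 53.5% ± 7.22 at 48 h and 25.96% ± 4.82 at 72 h (SD, n = 6 each). Both denominators, the table and the RPKM total, were therefore carried through. A gene that is level against the RPKM total takes a larger share of the table wherever the table is the smaller part, as in 72 h males. In the paper's supplement the 72 h males also had the lowest share of reads left after removal of PCR duplicates. They had the lowest share of reads on coding sequence too. What this did to the members was not tested. Of 8 segmentation and homeotic genes used to check the label embryo, 6 had at least 10 counts in some embryo at 24 h. At 48 and 72 h 7 did, with the same numbers in females and in males. The check does not compare levels. In the TMM fit described below, 2 of the 8 were called higher and 3 lower in females at 48 h, against 33.7% and 27.6% of tested genes. At 72 h 3 were called higher and 5 lower, against 38.2% and 26.8%. The libraries come from whole embryos, in which fewer cells of a type and less RNA per cell cannot be told apart.

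Together the 3 members took a very small part of the counts, and that part was several-fold larger at 48 h than at 24 h in both sexes. The lowest share was 8.59 parts per 1000000 counts of the table (ppm), in a 24 h female of queen 1 (95% Wilson interval 7.12 to 10.4, 108 counts). The highest was 526 ppm, in a 72 h male of queen 2 (95% Wilson interval 486 to 569, 629 counts). These intervals treat each read as an independent draw and leave out the spread between embryos. PCR copies are not independent molecules, so the intervals can be too narrow even for counting error. At 24 h the share was 14.9 ± 3.66 ppm in females and 23.8 ± 6.97 ppm in males (SD, n = 6 each). The 6 females, with 8.59 to 18.7 ppm, all lay below the 6 males, with 19.2 to 37.2 ppm. The two-sided exact permutation test of this difference gave p = 0.00216, the smallest that 6 against 6 embryos allow, and 0.00379 after Benjamini-Hochberg adjustment over the 7 comparisons of shares. Against the RPKM total the 24 h shares were 11.8 ± 2.70 ppm in females and 18.2 ± 5.08 ppm in males (SD, n = 6 each), again without overlap.

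At 48 h the share was 72.4 ± 6.40 ppm of the table in females and 109 ± 36.4 ppm in males (SD, n = 6 each). The groups overlapped, since the male with the lowest share had 51.9 ppm, and the adjusted p of the exact permutation test was 0.0379. This call did not hold against the RPKM total (44.7 ± 4.43 ppm in females, 56.1 ± 13.4 ppm in males) or when labels were permuted within each queen, and it was lost without any 1 of the 12 embryos other than embryo 6 of the queen 1 males. At 72 h the share was 71.3 ± 14.5 ppm in females and 273 ± 146 ppm in males, with no overlap (adjusted p = 0.00379, exact permutation test, n = 6 each). Against the RPKM total the same embryos had 46.9 ± 9.23 ppm in females and 65.7 ± 23.2 ppm in males, the groups overlapped, and the adjusted p was 0.115, the highest of the alternatives that used 6 against 6 embryos. The unscaled counts on the members themselves were 316 to 540 per embryo in 72 h females and 235 to 629 in 72 h males. Depth differed between these groups, so unscaled counts are not levels. The table summed to 5600680 to 7345814 in those females and 1195774 to 2008560 in those males. The RPKM total was 8692313 to 11691212 in those females and 5638347 to 6634771 in those males.

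Over time, the share was 4.86 times as large at 48 h as at 24 h in females and 4.57 times in males, without overlap in either sex (adjusted p = 0.00379 each, exact permutation test). Against the RPKM total the same ratios were 3.80 in females and 3.08 in males, again without overlap. Between 72 and 48 h the female share did not pass the test (difference of -1.13 ppm, adjusted p = 0.831, exact permutation test), and it was 4.06 ppm higher at 72 h without embryo 4 of the queen 1 females. The male share was 2.51 times as large at 72 h as at 48 h (adjusted p = 0.00606), and 1.17 times as large against the RPKM total, where it did not pass (9.66 ppm more at 72 h, adjusted p = 0.497).

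**Figure D2:**
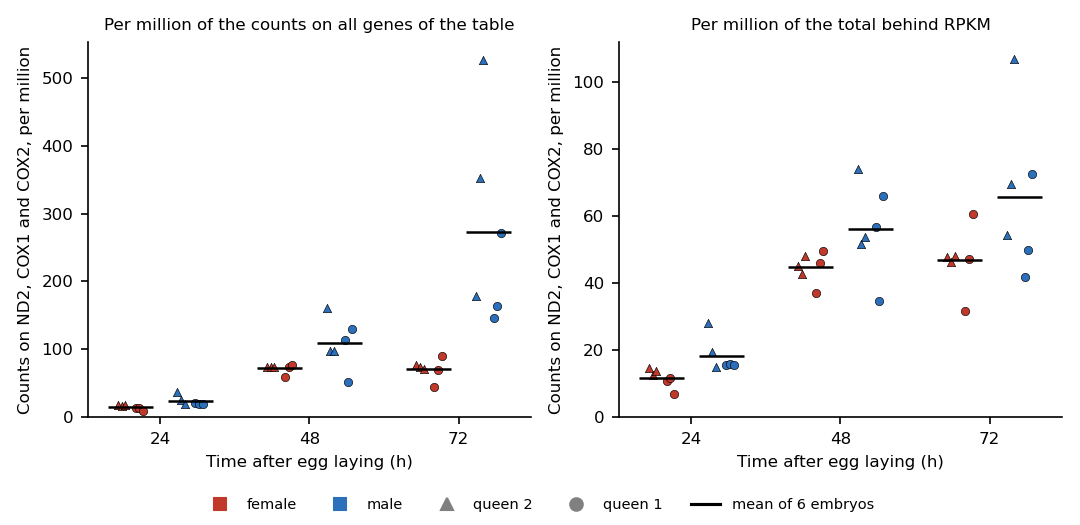
Counts on ND2, COX1 and COX2 together, in ppm of the counts of the table (left) and in ppm of the library total behind RPKM (right), by time after egg laying in hours. Each point is an embryo, red for female and blue for male, triangles for queen 2 and circles for queen 1, and the bars are means of 6 embryos; on the left the 72 h males lie at 147 to 526 ppm, all above the 72 h females, and on the right the 2 groups overlap.

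ND2, the row at tRNA-Cys, was the most abundant of the 3. Females had 4.95 to 10.98 TMM-normalized CPM (counts in a library scaled to 1000000) at 24 h with a median of 8.57, 35.7 to 51.0 at 48 h with a median of 44.4, and 13.3 to 33.0 at 72 h with a median of 27.8. Males had 9.90 to 22.01 CPM at 24 h with a median of 11.2, 47.8 to 165 at 48 h with a median of 102.1, and 171 to 618 at 72 h with a median of 253. On this scale females were highest at 48 h and males at 72 h, and the sexes overlapped at 24 and 48 h but not at 72 h. In deposited RPKM, ND2 averaged 101 ± 24.1 at 24 h, 488 ± 56.7 at 48 h and 360 ± 94.8 at 72 h in females, and 149 ± 49.6 at 24 h, 638 ± 163 at 48 h and 684 ± 228 at 72 h in males (SD, n = 6 each). On the RPKM scale the 72 h embryos overlapped, with 195.5 to 467 in females and 445 to 1081 in males.

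COX1, the row at tRNA-Leu, followed another course in females. Females had 2.77 to 6.89 CPM at 24 h with a median of 5.62, 9.12 to 15.7 at 48 h with a median of 12.8, and 16.8 to 26.3 at 72 h with a median of 20.1. Males had 6.35 to 12.9 CPM at 24 h with a median of 8.52, 12.2 to 32.6 at 48 h with a median of 25.7, and 51.3 to 236 at 72 h with a median of 82.6. COX1 was thus highest at 72 h in both sexes, and the sexes did not overlap at 72 h. In RPKM it averaged 62.1 ± 15.4 at 24 h, 134 ± 27.3 at 48 h and 291 ± 51.1 at 72 h in females, and 99.9 ± 23.9 at 24 h, 150 ± 31.1 at 48 h and 228 ± 98.8 at 72 h in males (SD, n = 6 each). On the RPKM scale the 72 h mean was the higher one in females, with overlapping embryos.

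COX2, the row at tRNA-Asp, had few counts. The counts per embryo were 4 to 8 at 24 h, 10 to 23 at 48 h and 10 to 24 at 72 h in females, and 7 to 13 at 24 h, 10 to 16 at 48 h and 10 to 21 at 72 h in males. In CPM the medians were 0.501 at 24 h, 2.09 at 48 h and 1.74 at 72 h in females, and 1.09 at 24 h, 3.55 at 48 h and 14.1 at 72 h in males. At this depth a change of a few reads moves a single embryo by a large part of its value. Only the 72 h groups did not overlap in CPM (0.984 to 2.83 in females, 9.25 to 29.5 in males), and in RPKM these overlapped too (14.5 to 40.0 in females, 25.7 to 51.6 in males).

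Per length, ND2 ranked 663rd of the 12365 genes at 24 h, 90th at 48 h and 213th at 72 h in females by mean RPKM, and 379th, 39th and 16th at those times in males. COX1 ranked 1141st at 24 h, 390th at 48 h and 246th at 72 h in females, and 618th, 262nd and 45th in males. COX2 ranked 5252nd at 24 h, 2272nd at 48 h and 2498th at 72 h in females, and 3850th, 1731st and 409th in males. A rank depends on the other genes and on the division by 69 or 70 bases, against a median exon length of 1950 bases over the table. The order ND2, COX1, COX2 held for the means of all 6 sex and time groups in RPKM, and ND2 and COX1 of 72 h females overlapped between embryos.

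**Figure D3:**
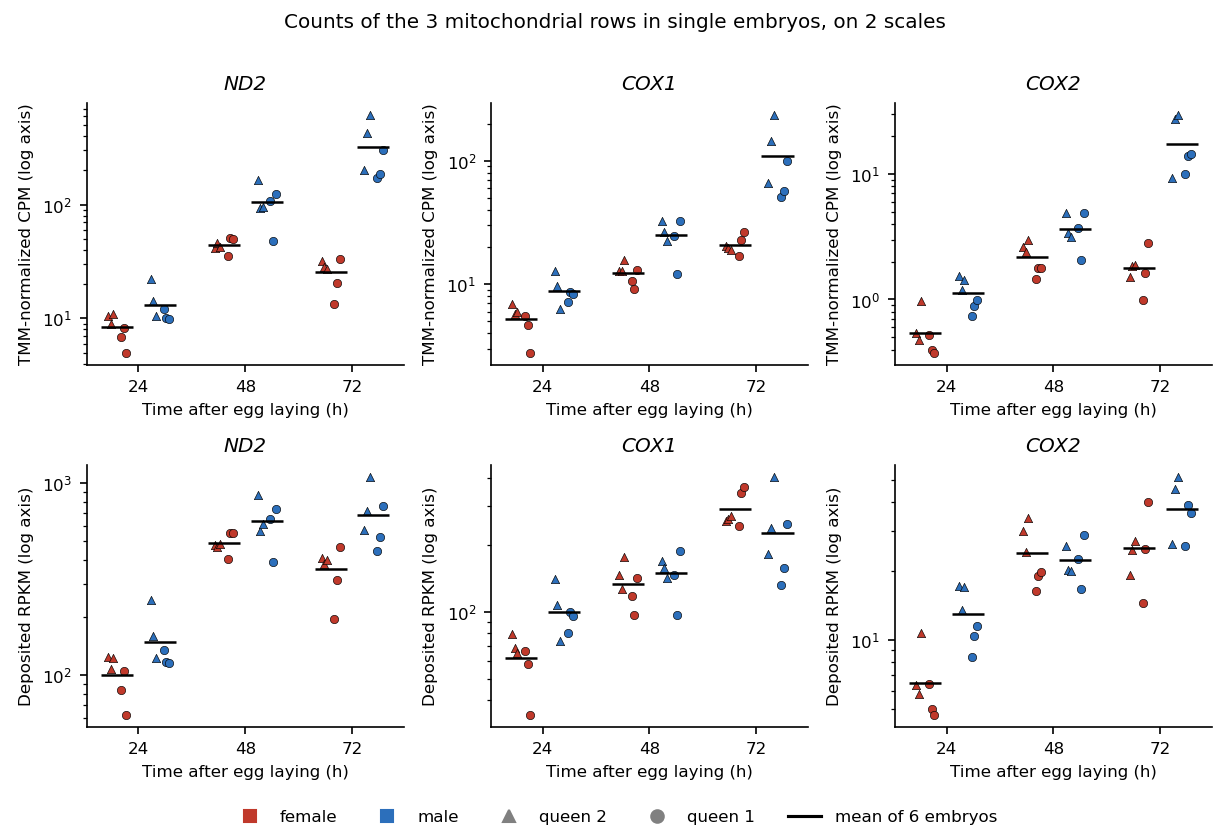
Levels of ND2, COX1 and COX2 in single embryos by time after egg laying in hours, as TMM-normalized CPM (top) and as deposited RPKM (bottom), all on log axes. Points are embryos, red for female and blue for male, triangles for queen 2 and circles for queen 1, and the bars are means of 6 embryos; the sexes separate at 72 h in the top row, and overlap there in the bottom row.

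The comparison of the sexes asked how female and male embryos differ at a time point. In edgeR's quasi-likelihood test on all 36 embryos with TMM scaling, a gene was called where the Benjamini-Hochberg adjusted p lay under 0.05 and the log2 fold change lay beyond 1 in either direction. At 24 h none of the 3 members was called, against 0.094% of the 9575 genes tested, called in either direction. The log2 fold changes of females over males were -0.64 ± 0.25 for ND2, -0.78 ± 0.25 for COX1 and -1.04 ± 0.34 for COX2 (SE), with edgeR adjusted p of 0.222, 0.14 and 0.135. All 3 had an unadjusted p under 0.05, as did 15.1% of tested genes. DESeq2 called none of the 3, against 28 of 9016 genes. At 48 h ND2 and COX1 were called lower in females under TMM scaling, 2 of 3 members against 27.6% of tested genes called lower. ND2 fell by 1.21 ± 0.23 on the log2 scale in females relative to males (adjusted p = 1.11e-05, edgeR). COX1 fell by 1.003 ± 0.25 (adjusted p = 0.000325, edgeR), at the edge of the threshold, and COX2 was at -0.74 ± 0.30 (adjusted p = 0.0223, edgeR). The COX1 call was lost without any 1 of 8 embryos, namely at 48 h embryos 7 and 8 of the queen 1 females, 18 and 29 of the queen 2 females, 4 and 8 of the queen 1 males and 21 of the queen 2 males, and at 24 h embryo 35 of the queen 2 females, where its log2 fold change lay between -0.997 and -0.86. It was also lost with DESeq2 size factors (-0.80), in the DESeq2 Wald test (-0.81), with upper-quartile scaling (-0.93) and in queen 2 on its own (-0.97), and with table totals neither ND2 (-0.62) nor COX1 (-0.40) was called.

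At 72 h all 3 members were called lower in females, against 26.8% of tested genes called lower. ND2 fell by 3.59 ± 0.25 (adjusted p = 2.29e-16), COX1 by 2.30 ± 0.25 (adjusted p = 4.35e-11) and COX2 by 3.20 ± 0.30 on the log2 scale in females relative to males (SE, adjusted p = 1.19e-12, edgeR). Over all 9575 genes the median was 0.41 on the log2 scale in this comparison, and 92.1% of the genes had a higher one than ND2, 85.1% than COX1 and 90.2% than COX2. These calls depended on the scaling. With the RPKM total as the library size the median of all genes moved to 2.97, the log2 fold changes were -0.92 for ND2, 0.38 for COX1 and -0.56 for COX2, and none of the 3 was called at 72 h or at 48 h, against 86.5% of tested genes called in either direction at 72 h and 66.8% at 48 h. Under the other 4 scalings tried (DESeq2 size factors, upper quartile, table totals, and TMM without the members) all 3 were called lower in females at 72 h. Of the 9575 tested genes, 2504 were called lower with DESeq2 size factors, 2438 with upper quartile and 1443 with table totals.

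**Figure D4:**
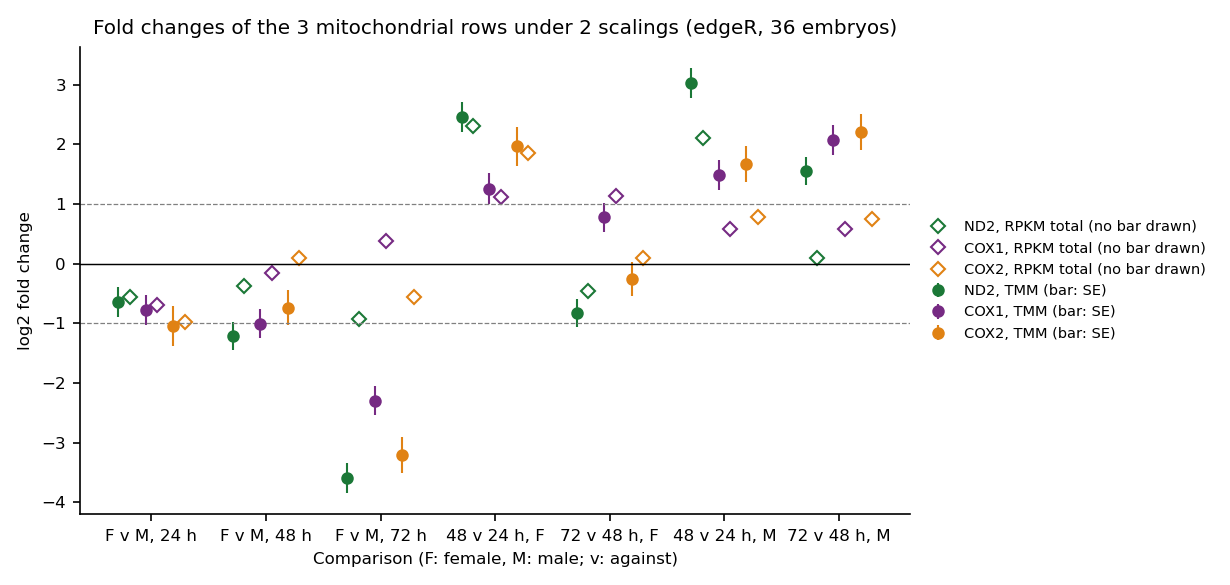
Log2 fold changes of the 3 members in 7 comparisons (F female, M male, v against). Filled points are the TMM fit with its standard error, open diamonds the fit with the RPKM total as library size, drawn without an error, and dashed lines mark log2 fold changes of -1 and 1; the diamonds lie near the points at 24 h and for 48 against 24 h in females, and far from them at 72 h.

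The time comparisons asked what changed between adjacent days within a sex. All 3 members were called higher at 48 h than at 24 h in females, against 32.4% of tested genes called higher, with log2 fold changes of 2.45 ± 0.25 for ND2, 1.26 ± 0.25 for COX1 and 1.97 ± 0.33 for COX2 (SE). All 3 were called higher in males too, against 10.9% of tested genes, with 3.02 ± 0.25 for ND2, 1.48 ± 0.25 for COX1 and 1.67 ± 0.31 for COX2 (SE). The edgeR adjusted p of these 6 calls lay between 7.04e-13 and 2.4e-05. In males, 1.31% of tested genes had a higher log2 fold change than ND2 over this step. With the RPKM total all 3 were still called in females (2.30, 1.12 and 1.85 for ND2, COX1 and COX2), and in males ND2 was (2.11) while COX1 and COX2 were not (0.59 and 0.78), against 30.2% of tested genes called higher in females and 2.49% in males.

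Between 72 and 48 h the calls were not alike in the sexes. In females none of the 3 was called, against 34.7% of tested genes called in either direction. ND2 had -0.82 ± 0.23 (adjusted p = 0.0022), COX1 0.78 ± 0.24 (adjusted p = 0.00441) and COX2 -0.26 ± 0.29 (SE, adjusted p = 0.445, edgeR). ND2 and COX1 thus had opposite signs and a fold change under the threshold. An unadjusted p under 0.05 was found for 2 of the 3 and for 68.8% of tested genes. DESeq2 called none of the 3, against 3286 of 9573 genes. In males all 3 were called higher at 72 h, against 16.7% of tested genes, with 1.55 ± 0.24 for ND2, 2.07 ± 0.25 for COX1 and 2.21 ± 0.30 for COX2 (SE, highest adjusted p = 7.24e-07, edgeR). In males none of the 3 was called with the RPKM total (0.09, 0.59 and 0.74), against 4.25% of tested genes called higher, and COX1 was called in females (1.13), against 28.4% called higher.

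The interaction of sex and time, the female change minus the male change, was tested directly. With TMM scaling, for 48 against 24 h none of the 3 was called, against 55.8% of tested genes called in either direction. The values were -0.57 ± 0.34 for ND2, -0.22 ± 0.36 for COX1 and 0.30 ± 0.43 for COX2 (SE). None had an unadjusted p under 0.05 in edgeR, against 72.7% of tested genes. DESeq2 called none of the 3, against 5722 of 9573 genes. COX2 was called with the RPKM total (1.07), against 61.2% of tested genes called in either direction, and ND2 (0.20) and COX1 (0.54) had the opposite sign without a call. For 72 against 48 h all 3 were called lower, against 20.5% of tested genes, with -2.37 ± 0.33 for ND2 (adjusted p = 8.8e-08), -1.29 ± 0.34 for COX1 (adjusted p = 0.00142) and -2.46 ± 0.42 for COX2 (SE, adjusted p = 3.45e-06, edgeR). The COX1 call was lost without embryo 24 of the queen 2 males at 72 h (-0.98). It was also lost in queen 1 on its own (-0.65) and with table totals (-0.64). For this step none of the 3 was called with the RPKM total, against 71.3% of tested genes called in either direction, and COX1 had the opposite sign (0.54).

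A ratio of 2 members within an embryo does not depend on the library total. The ratio of ND2 to COX1 counts was therefore computed, a measure chosen after the values were seen. The adjusted p of this ratio and of the COX1 to COX2 ratio below do not cover that choice. In females it was 1.24 to 1.86 at 24 h, 2.70 to 5.597 at 48 h and 0.789 to 1.56 at 72 h. In males it was 1.17 to 1.71 at 24 h, 3.52 to 5.06 at 48 h and 2.62 to 3.33 at 72 h. The sexes overlapped at 24 h (1.62 ± 0.23 in females, 1.47 ± 0.24 in males) and at 48 h (3.72 ± 1.00 in females, 4.17 ± 0.54 in males), where the adjusted p was 0.323 and 0.351. At 72 h the ratio was 1.23 ± 0.32 in females and 3.05 ± 0.25 in males (SD, n = 6 each), every female lay below every male, and the adjusted p over 7 comparisons was 0.00303 in a two-sided exact permutation test. The 48 h ratio was 2.29 times the 24 h ratio in females and 2.84 times in males, and the 72 h ratio was 0.331 times the 48 h ratio in females and 0.732 times in males, each without overlap and with the same adjusted p of 0.00303. At 72 h the 3 females of queen 2 had 1.43 to 1.56 and the 3 females of queen 1 had 0.789 to 1.26, a split that was not tested.

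The ratio of COX1 to COX2 counts, likewise chosen after the values were seen, was 12.5 in 72 h females and 6.13 in 72 h males on average, with no overlap (9.29 to 17.1 in females, 4.12 to 8 in males, adjusted p = 0.00758, exact permutation test, n = 6 each). It was 5.88 in 48 h females, also without overlap with the 72 h females. As shares of the counts on the 3 members, ND2 made up 52.4% ± 6.74, COX1 44.0% ± 6.78 and COX2 3.62% ± 0.61 in 72 h females. In 72 h males ND2 made up 72.2% ± 1.33, COX1 23.8% ± 1.68 and COX2 4.04% ± 0.83 (SD, n = 6 each). The shares of ND2 and of COX1 did not overlap between the sexes at 72 h and those of COX2 did, which was not tested.

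**Figure D5:**
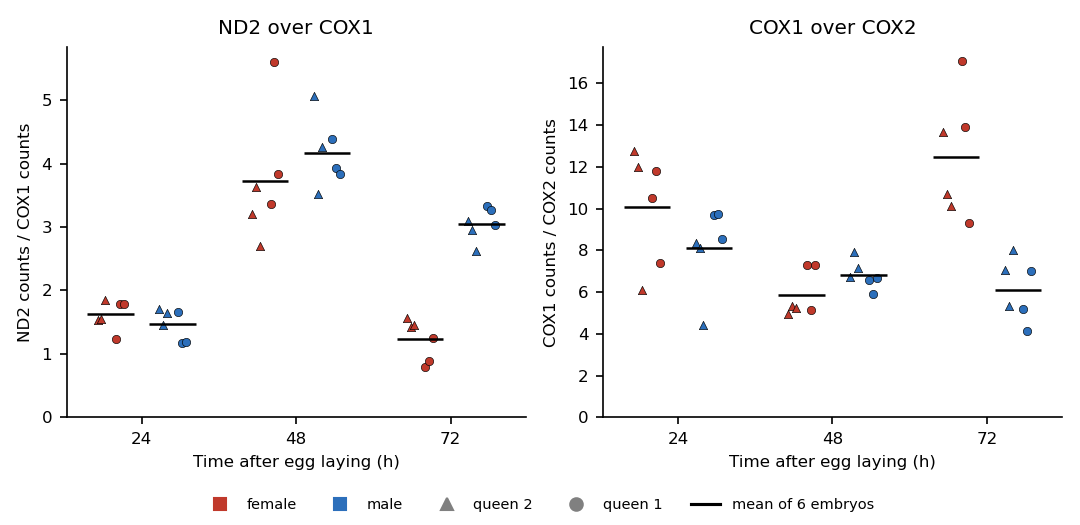
Ratio of ND2 to COX1 counts (left) and of COX1 to COX2 counts (right) in each embryo, by time after egg laying in hours, red for female and blue for male, triangles for queen 2 and circles for queen 1, bars for means of 6 embryos. On the left the 72 h females lie at 0.789 to 1.56, all below the 72 h males, and on the right they lie at 9.29 to 17.1, all above them.

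The queens did not differ by a call. The log2 fold changes of queen 2 over queen 1 were 0.45 ± 0.14 for ND2, 0.37 ± 0.14 for COX1 and 0.45 ± 0.18 for COX2 (SE), with edgeR adjusted p of 0.0967, 0.155 and 0.167. None of the 3 was called, nor was any of the 9575 tested genes (0% called), while DESeq2 called 2 genes and none of the members. At an unadjusted p under 0.05 edgeR had all 3 members and 1736 genes (18.1%). The mean share of counts was higher in queen 2 in each of the 6 sex and time groups, from 74.2 against 70.5 ppm in 48 h females to 353 against 194 ppm in 72 h males (n = 3 each).

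Nuclear genes of oxidative phosphorylation were set beside the members. Of 68 nuclear genes annotated as subunits of oxidative phosphorylation, here complexes I to V together and not only the 2 complexes of the members, 61 were tested. At 48 h 26 were called higher and 3 lower in females than in males, with a median log2 fold change of 0.75 against 0.18 over all tested genes, of which 33.7% were called higher and 27.6% lower. At 72 h 36 were called higher and 3 lower, with a median of 1.28 against 0.41 over all tested genes, of which 38.2% were called higher and 26.8% lower. At 72 h 59 were called higher and 0 lower with the RPKM total, with a median of 3.82 against 2.97 over all tested genes. Of all tested genes 78.8% were called higher and 7.73% lower with that total. LOC724719, annotated as a complex I subunit, averaged 80.2 ± 15.7 CPM in 48 h females and 3.23 ± 2.20 CPM in 48 h males (SD, n = 6 each, log2 fold change 4.69 ± 0.26). ATP5G2, a lipid-binding subunit of the ATP synthase ring, averaged 1291 ± 195 CPM in 72 h females and 17.1 ± 6.82 CPM in 72 h males (log2 fold change 6.29 ± 0.27). The called gene with the lowest log2 fold change at 48 h was SdhA of complex II, with 41.2 ± 5.78 CPM in females and 98.9 ± 10.96 CPM in males (log2 fold change -1.26 ± 0.12), and it was not called with the RPKM total (-0.46) or with table totals (-0.66).

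Of 13 nuclear genes for the machinery of mitochondrial DNA and RNA, which copies, transcribes and processes this genome, 11 were tested. In females relative to males 2 were called higher and 1 lower at 48 h (median log2 fold change 0.37 against 0.18 over all tested genes), and 7 higher and 0 lower at 72 h (median 2.29 against 0.41). The shares of all tested genes called higher, 33.7% at 48 h and 38.2% at 72 h, apply here too. So do those called lower, 27.6% at 48 h and 26.8% at 72 h. With the RPKM total 6 were higher and 1 lower at 48 h, against 49.2% of all tested genes called higher and 17.6% lower. At 72 h 11 were higher and 0 lower with that total, against 78.8% and 7.73%. LOC100578653, annotated as similar to the mitochondrial DNA helicase twinkle, had 41 to 75 counts in 48 h females and 1 to 11 in 48 h males (log2 fold change 2.65 ± 0.31). At 72 h it had 57 to 121 counts in females and 1 count in 1 of the 6 males, with 0 in the other 5. The lowest log2 fold change among the 7 called at 72 h was that of LOC725579, annotated as similar to the mitochondrial RNA polymerase, with 82 to 174 counts in females and 3 to 10 in males (12.1 ± 3.94 CPM in females, 5.56 ± 2.76 CPM in males, log2 fold change 1.13 ± 0.27), and this call was lost in queen 1 on its own (0.81). The mitochondrial transcription factor mtTFB2 averaged 3.27 ± 0.53 CPM in 48 h females and 14.5 ± 5.34 CPM in 48 h males (SD, n = 6 each, log2 fold change -2.12 ± 0.27). The table also holds 49 nuclear tRNA genes, and 4 of them passed the filter on low counts. Other short rows of the table were not looked at. In females relative to males at 72 h, 1 of the 4 was called higher and 1 lower, against 38.2% and 26.8% of all tested genes. At 48 h 1 was called higher and 2 lower, against 33.7% and 27.6%.

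Over the 36 embryos the members resembled each other in TMM-normalized CPM, with Spearman correlations of 0.884 for ND2 and COX1, 0.956 for ND2 and COX2 and 0.927 for COX1 and COX2. The tested genes off the mitochondrial sequence most alike to the summed CPM of the 3 were LOC102654720 (0.966), LOC102655096 (0.956), LOC100578841 (0.952), LOC725792 (0.952) and LOC410585 (0.951). The first 3 are uncharacterized, LOC725792 is annotated as similar to the transcription factor hamlet, and LOC410585 as DE-cadherin, a cell adhesion protein. All these values share the same libraries, scaling factors and 6 sex and time groups, and they are a description without a test.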

How the data were processed

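Counts and RPKM of 12365 genes in 36 embryos were used as the authors deposited them. The authors trimmed reads with cutadapt and the FASTX-Toolkit, kept the first 65 bases, aligned them to Amel_4.5 with TopHat2, kept unambiguous alignments and counted reads per gene. The labels also name bcl2fastq 2.16.0.10. The counting tool and its strand setting are not given in the sources used here. The deposited RPKM are counts per kilobase and per 1000000 of a library total that is not named. This total was recovered from genes with over 1000 counts, of which 100% gave it within 1%. Column names matched the sample titles, and 0 columns of other samples were found.

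Members were found by position on the mitochondrial sequence. The members and the gene lists were chosen with earlier results of these data known. Counts were fitted in R 4.3.3 with edgeR 4.0.16 (TMM, filterByExpr with a minimum count of 10, quasi-likelihood F-test) in 1 model of 6 sex and time groups and a queen term, with Benjamini-Hochberg adjustment over 9575 genes. For shares and ratios the exact permutation test over embryos was used, two-sided and adjusted over 7 comparisons. Shares are printed in ppm, parts per 1000000 counts. Named nuclear genes are, for each list and each comparison of the sexes at 48 and 72 h, the called genes with the highest and the lowest log2 fold change, and the 5 genes most alike to the members. Under this rule 1 gene is not reported here. The nuclear tRNA genes and the 2 ratios were added after the values were seen. DESeq2 1.42.0 was run as another test, and its size factors, upper-quartile factors, table totals, the RPKM total and TMM without the members as other scalings. Also tried were no filter, no minimum fold change, an unadjusted p under 0.01, the queens taken apart, a model without the queen, labels permuted within queens, and each embryo left out in turn. Embryos are single animals, so p-values measure the spread between siblings of 2 queens. The sources give laying windows that differ by an hour.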

Additional observations from a re-analysis of the deposited data

Results flagged for a closer look

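Among 36 sets of 6 embryos (TMM-normalized CPM of the 3 members, the share of counts and the 2 ratios, in 6 sex and time groups), 5 held an embryo far from the others by Dixon's criterion, which by chance picks about 1 in 20 sets. The sets are not independent, since the share sums the 3 members and the ratios reuse their counts. The number found can therefore not be judged against that rate. Embryo 8 of the queen 2 males at 24 h had 22.01 CPM of ND2, against 9.90 to 14.1 in the other males of that age, and a share of 37.2 ppm, against 19.2 to 25.7. Embryo 35 of the queen 2 females at 24 h had 0.966 CPM of COX2, against 0.375 to 0.540. Embryo 7 of the queen 1 females at 48 h had a share of 59.6 ppm, against 73.8 to 77.5. Embryo 11 of the queen 2 males at 24 h had a ratio of COX1 to COX2 counts of 4.42, against 8.10 to 9.73.

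The change between 72 and 48 h differed between the sexes for all 3 members in the TMM fit, with female minus male log2 fold changes of -2.37 for ND2, -1.29 for COX1 and -2.46 for COX2. The table held 66.1% of the RPKM total in 72 h females and 25.96% in 72 h males, and with that total as the library size none of the 3 was called.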

How the results depend on the processing

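Scaling moved the results most. With the RPKM total as library size the members called were 0 for the sexes at 48 h, 0 for the sexes at 72 h, 1 for 48 against 24 h in males, 1 for 72 against 48 h in females, 0 for 72 against 48 h in males, 1 (COX2, female minus male 1.07) for the interaction of 48 against 24 h and 0 for that of 72 against 48 h. Under it the log2 fold changes with the opposite sign were 0.092 (COX2, sexes at 48 h), 0.38 (COX1, sexes at 72 h), 0.090 (COX2, 72 against 48 h in females), 0.20 and 0.54 (ND2 and COX1, interaction of 48 against 24 h) and 0.54 (COX1, interaction of 72 against 48 h). With table totals 0 members were called for the sexes at 48 h, against 6208 of 9575 genes called in either direction. For 72 against 48 h in females 1 was called with table totals, against 3391 genes. Signs turned under table totals for COX2 in 72 against 48 h in females (0.0026) and COX1 in the interaction of 48 against 24 h (0.35). For the sexes at 48 h, DESeq2 size factors, its Wald test, upper-quartile scaling and queen 2 on its own each called 1. The genes called there in either direction were 5910 of 9575, 5917 of 9573, 5887 of 9575 and 5695 of 9695, in that order. An unadjusted p under 0.01 called 1 for the sexes at 24 h, against 61 of 9575 genes. No minimum fold change called 2 for 72 against 48 h in females, against 6353 of 9575 genes. Queen 1 on its own called 1 for 72 against 48 h in females, which was ND2 (-1.06), against 3312 of 9663 genes. COX2 had the opposite sign there (0.086) without a call. For the interaction of 72 against 48 h, table totals and queen 1 on its own each called 2, without COX1.

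Leaving out each embryo in turn gave 1 to 2 members called for the sexes at 48 h and 2 to 3 for the interaction of 72 against 48 h, and moved no other count. Share differences then ranged from -47.8 to -26.01 ppm for the sexes at 48 h, where leaving out any of 11 of the 12 embryos took the adjusted p over 0.05, and from -4.82 to 4.06 for 72 against 48 h in females, with 4.06 without embryo 4 of the queen 1 females. They ranged from -9.83 to -6.22 for the sexes at 24 h, from -227 to -152 at 72 h, from 56.2 to 60.1 for 48 against 24 h in females, from 74.6 to 96.4 in males and from 114 to 190 for 72 against 48 h in males. Against the RPKM total the share differences were -11.4 and -18.8 ppm for the sexes at 48 and 72 h. On that denominator the differences for 72 against 48 h were 9.66 in males (adjusted p = 0.497, exact permutation test) and 2.21 in females. Embryos were left out in turn for the share of the table only, where the male difference for 72 against 48 h kept an adjusted p of 0.00303 to 0.0364. With labels permuted within queens the sexes at 48 h (-36.4) had an adjusted p of 0.0583.

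For the ratio of ND2 to COX1, queen 1 and queen 2 on their own gave differences of -2.23 and -1.41 for the sexes at 72 h and -3.28 and -1.70 for 72 against 48 h in females, and queen 1 gave 0.20 for the sexes at 48 h. Leaving out embryos gave -0.83 to -0.25 for the sexes at 48 h, and the lowest (without embryo 8 of the queen 1 females) passed the threshold. It gave -1.91 to -1.73 at 72 h. A single queen offers 3 against 3 embryos, where the smallest p is 0.1.

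Only the queen 1 males at 48 and 72 h share more than 1 embryo number. Each library came from a single whole embryo, so a shared number cannot mark the same embryo at both times. The 2 pairs correlated at 0.0009 and 0.042 in their deviations, too few pairs to settle any other link. In those 6 embryos 1 member was called with the replicate block, against 646 of 6732 genes called in either direction. Without the block 3 were, against 1245 of the same genes. Protein-coding members alone are the same 3 rows, so that alternative was not run apart. COX2, with 4 to 24 counts per embryo, is limited by depth, and the cause of the scaling differences was not tested.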
